A study of Mus musculus with 32 samples.

Results

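The effect of 3 h of PCI-32765, the BTK inhibitor also known as ibrutinib, was measured in 2 mouse B cell lymphoma lines, 178119 and 28545, on 1 array each. These 2 arrays were chosen by their titles, which name the drug and the time, out of the 32 arrays of a study of ATM-deficient B cell lymphomas. On both, RNA of cells given 100 nM PCI-32765 was labelled red (Cy5) and RNA of vehicle-treated (DMSO) cells of the same line and time was labelled green (Cy3), so each value is a log2 ratio of drug over vehicle within a line. Both lines came from spleens of ATMKO.CD3epsilonKO mice, and drug and vehicle arms alike lacked Atm and Cd3e by genotype. The arrays at 1 h, 6 h and 24 h (2 each, 1 per line) entered the same fit, and 9 arrays of ATMKO.CD3epsilonKO and ATMWT.CD3epsilonKO splenic B cells, untreated or given 15 ug/ml anti-IgM, served as a readout in other cells.

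The lines are the only replicates: the labels give 1 drug and 1 vehicle sample per line and time and name no repeat cultures, so a p-value here measures the spread between the 2 lines. Dyes were not swapped. A probe's own dye effect at 3 h therefore cannot be told apart from the drug, whereas one that is the same on every array cancels in 3 h minus 1 h. All 8 drug arrays lay on 1 slide, with line as slide column and time as slide row, so slide position cannot be told apart from line or time. Of 17 B cell markers on the array, 16 were well above background in the vehicle channel of both lines at 3 h, all but Igkc, and so were 10 of 17 T cell markers, among them Cd3d, Cd3e, Cd4, Lck and Ctla4. Markers of other cells were above background there too: 7 of 19 for macrophages and dendritic cells (Csf1r, Cd68 and Itgam among them, not Cd14 or Lyz2), 4 of 15 for neutrophils (Elane and Ly6g, not S100a8), 7 of 17 for red cells (Hba-a2 and Hbb-bt, not Hba-a1), 5 of 16 for stroma and vessels (Pecam1 and Cdh5, not Col1a1) and 3 of 13 for NK cells. Their part in the results was not tested.

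BTK is the kinase that carries the signal of the B cell receptor from the membrane to phospholipase C gamma 2, and from there to calcium and NFAT, to ERK and to NF-kappaB. Immediate early genes such as Egr1 and Fos are switched on within minutes of such a signal and need no new protein, while MYC and NF-kappaB act through further targets.

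The largest changes at 3 h were losses, and many were of genes that B cell receptor signalling is known to induce. Egr1, Il4i1, Egr2, Myc, Tnfaip3 and Fosb fell by 5.02-fold to 11-fold, whereas only 3 genes rose by a mean of 2-fold or more. Among 17446 genes tested, 753 fell and 560 rose in limma's moderated test (Benjamini-Hochberg adjusted p under 0.05), which is 4.32% and 3.21% of the genes. All 1313 (7.53%) lay on the same side of 0 in both lines, which passing a test against the spread between the lines largely fixes. The fit borrows the spread from the other times: without the array of line 178119 at 3 h 141 genes passed and without that of line 28545 150 did. In bulk RNA, fewer cells of a type and less RNA per cell cannot be told apart. The split rests on how the dyes are balanced: 42.7% of the calls were increases after loess normalization, 44.1% in the authors' deposited values, 80.7% once those were centred on the median and 99.4% with median centring in place of loess. That last scaling moved the median of all genes to 0.59, against 0.02 after loess, and left 236 of the 753 decreases below 0. Directions below are those after loess, for which a gene's shift is read against a median of all genes near 0.

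The lines moved alike in the largest changes. In line 178119, 131 genes were at least 2-fold lower with drug, and in line 28545, 102 were. The 75 that reached this in both (0.43% of genes tested, with no test) make up 57.3% of the first list and 73.5% of the second. Of these, 74 also fell in the limma test, which draws on the same 3 h arrays, and the exception was Prr7, a name chosen after the values were seen. Only Plpp3 was at least 2-fold higher in both (0.00573%). Across all genes the lines' log2 ratios correlated with a Pearson r of 0.719 at 3 h, 0.401 at 1 h, 0.722 at 6 h and 0.661 at 24 h. These coefficients describe genes on arrays of 1 slide and 1 dye orientation and carry no p.

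**Figure D1:**
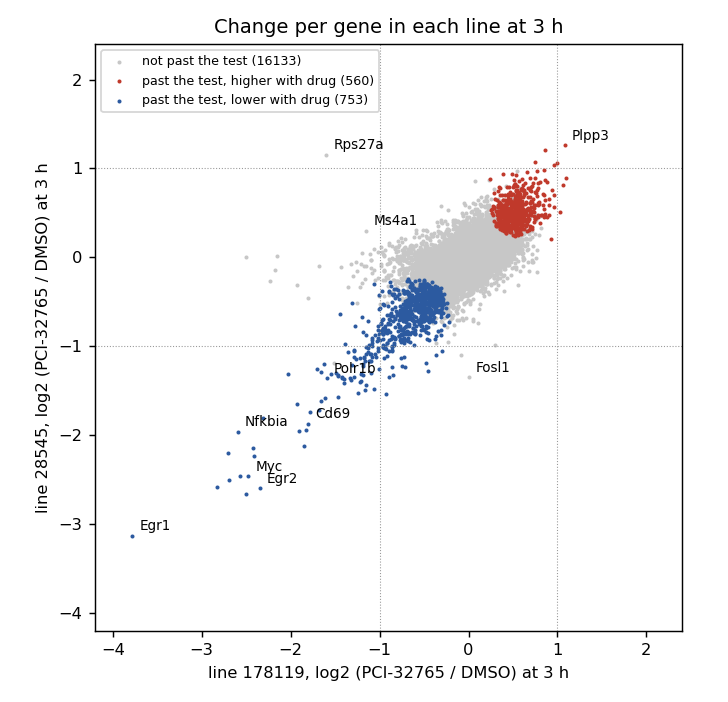
Log2 ratio of PCI-32765 over DMSO at 3 h in line 178119 (x) and line 28545 (y), 1 point per gene; dotted lines mark a 2-fold change. The 753 genes that fell (blue) and the 560 that rose (red) lie along the diagonal, which their passing the test largely fixes. Egr1 lies farthest from 0, while Rps27a, Ms4a1 and Fosl1 lie off the diagonal.

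Among the immediate early genes, Egr1, Egr2, Myc, Fosb and Fos fell the most. Egr1, a zinc finger factor induced through ERK, stood at -3.78 in line 178119 and -3.13 in line 28545, a mean log2 change of -3.46 ± 0.14 (SE, n = 2 lines, limma adjusted p = 2.9e-06) or 11-fold. Both lines were already low at 1 h, at -2.45 and -2.38, and its further fall to 3 h missed the threshold in limma (adjusted p = 0.069). Egr2, its relative in lymphocytes, stood at -2.35 and -2.59 at 3 h (mean -2.47, limma adjusted p = 1.29e-05), near its 1 h values of -2.05 and -2.20. Fos, a subunit of AP-1, was as low at 1 h (-1.61 and -1.72) as at 3 h (-1.78 and -1.74). All 3 genes were past the test at 1 h and did not pass in 3 h minus 1 h.

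Myc and Fosb were lower at 3 h than at 1 h. Myc, which drives cell growth and ribosome production, went from -1.26 in line 178119 and -0.84 in line 28545 at 1 h to -2.48 and -2.46 at 3 h, 5.54-fold below vehicle. The difference between the times was -1.42 ± 0.16 (limma adjusted p = 0.0167). Fosb, another AP-1 subunit, went from -1.23 and -0.77 to -2.42 and -2.24 (limma adjusted p of the difference = 0.0218). At 24 h Fosb was above vehicle, at 0.52 and 0.32 (limma adjusted p = 0.0327), and Myc was still below it, at -0.36 and -0.54 (limma adjusted p = 0.0194).

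Of the 25 immediate early genes measured, 16 fell at 3 h, 1 rose and 8 did not pass, with a median of -0.60 against 0.02 for all genes. In the authors' deposited values 11 fell, or 8 once centred, and with median centring 7 fell and 3 rose. Junb (-1.43), Ier3 (-1.16), Nr4a1 (-1.08), Jun (-1.04) and Ier2 (-0.80) were among those that fell. Nr4a1, an orphan nuclear receptor used as a reporter of B cell receptor signalling, was lower in line 28545 (-1.32) than in line 178119 (-0.85). The 1 that rose was Btg2, an antiproliferative gene, at 0.85 and 0.70 (limma adjusted p = 0.004), and it had stood at 0.61 and 0.49 at 1 h. Atf3, Klf6 and Nr4a2 did not pass, with means of -0.26, 0.14 and -0.10.

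Sequence just before a start of Egr2 and of 3 NF-kappaB genes is shown because these genes fell and hold motifs of signal-responsive factors there. Each is the 150 bases before 1 start in RefSeq's GRCm38.p6, which lists several for Egr2 and Nfkb2, on the gene's strand, and the capitals mark the motifs found on either strand. Egr2 (chr10:67537780-67537929, + strand) holds a CArG box, bound by serum response factor. Nfkbia (chr12:55492648-55492797, - strand) and Nfkb2 (chr19:46304587-46304736, + strand) hold NF-kappaB motifs, and Tnfaip3 (chr10:19015411-19015560, - strand) holds those and the AP-1 motif TGANTCA and the E-box CACGTG.
Egr2: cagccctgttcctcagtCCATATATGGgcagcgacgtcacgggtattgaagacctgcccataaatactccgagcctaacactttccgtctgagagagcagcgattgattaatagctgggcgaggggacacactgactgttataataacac
Nfkbia: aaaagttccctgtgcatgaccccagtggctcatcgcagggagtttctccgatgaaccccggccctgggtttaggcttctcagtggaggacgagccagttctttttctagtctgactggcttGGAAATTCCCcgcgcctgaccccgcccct
Tnfaip3: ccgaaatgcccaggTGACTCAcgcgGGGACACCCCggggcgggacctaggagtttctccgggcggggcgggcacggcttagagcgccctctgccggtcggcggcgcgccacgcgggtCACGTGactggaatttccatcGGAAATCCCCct
Nfkb2: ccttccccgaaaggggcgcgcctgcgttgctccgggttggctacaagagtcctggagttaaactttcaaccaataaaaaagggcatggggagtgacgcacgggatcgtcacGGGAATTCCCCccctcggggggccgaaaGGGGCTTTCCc

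RefSeq's table held a promoter window of 300 bases (250 before and 50 after the start) for 20 of the 25 immediate early genes. A CArG box was in 3 of them (15%), the EGR motif GCGNGGGCG in 9 (45%) and the E-box CACGTG in 5 (25%). Among the 10003 tested genes with a window these shares were 1.63%, 11.6% and 11.5%, and among all 27025 genes with a window 1.81%, 6.27% and 8.09%. Those 10003 are only 57.3% of the genes tested, so a comparison with them is void as well. The shares of the list are given as a description. Both strands were searched, and a match is a description of letters and not a bound site. The same check is void for the genes that fell at 3 h, since only 67.7% of them had a window in the table, and for the NF-kappaB list, with 76.5%.

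Most NF-kappaB targets and feedback genes fell. Of 17 measured, 13 fell and none rose, with a median of -0.98 at 3 h against -0.22 at 1 h. In the authors' deposited values 11 fell, centred or not, and with median centring 5 fell and 4 rose. Tnfaip3, which encodes the deubiquitinase A20 that shuts NF-kappaB signalling off, stood at -2.70 and -2.20 at 3 h after -1.40 and -1.28 at 1 h, a difference that passed only with the line as a block (limma adjusted p = 0.0247, against 0.0646). Nfkbia, encoding the inhibitor IkappaB alpha, went from -0.96 and -0.61 to -2.60 and -1.96, and the difference between the times passed in limma (adjusted p = 0.0257). Both genes are brakes on the pathway that it induces itself.

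Subunits of NF-kappaB were near vehicle at 1 h. Nfkb2, the p100 subunit of the alternative arm, stood at -0.28 and 0.19 at 1 h and at -1.22 and -1.41 at 3 h (difference -1.27 ± 0.17, limma adjusted p = 0.0246). Relb, its partner, went from -0.17 and 0.03 to -0.96 and -0.99 (limma adjusted p = 0.0274). Traf1, a receptor adaptor and NF-kappaB target, went from -0.47 and -0.52 to -1.42 and -1.34 (limma adjusted p = 0.0265). Nfkb1, Nfkbie and Birc3 fell at 3 h by 0.79, 0.98 and 0.88 on the log2 scale, and their differences from 1 h did not pass, with limma adjusted p of 0.0776, 0.0666 and 0.0634. Nfkbiz, an atypical inhibitor, was down at 1 h already (-0.89 and -0.97) and little lower at 3 h (-1.04 and -1.12). Rela, Bcl3, Cyld and Nfkbib did not pass, with means of -0.28, -0.09, 0.25 and -0.34.

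Genes of cell survival and death passed in both directions. Cflar, which encodes the caspase-8 inhibitor c-FLIP, stood at -1.47 in line 178119 and -1.57 in line 28545 (limma adjusted p = 0.00127). Bcl2 stood at -0.94 and -1.02, a mean of -0.98 (limma adjusted p = 0.000636), and Bcl2l1, encoding BCL-XL, at -0.52 and -0.50. Bmf, a BH3-only gene that promotes cell death, rose to 1.06 and 0.81 (limma adjusted p = 0.0028) and had stood at 0.69 and 0.44 at 1 h. The other 9 measured genes of the BCL2 family list did not pass, with means from -0.40 for Bax to 0.34 for Bbc3. Bcl2a1c, a relative outside that list, fell to -1.165 and -1.163 (limma adjusted p = 0.00393). Bcl2l11, encoding BIM, had a mean of 0.06.

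Part of the activation genes fell. Cd69, an early activation antigen, stood at -1.80 and -1.87 and had been at -1.47 and -1.43 at 1 h. Of 24 activation and costimulation genes measured, 9 fell and none rose, with a median of -0.42, where 4.32% of all genes tested fell. In the authors' deposited values 5 fell, or 4 once centred, and with median centring 3 fell and 10 rose. Slamf1 (-2.03 and -1.32), Cd40 (-1.19 and -0.83) and Cd86 (-0.61 and -0.73) were among them. Ctla4, an inhibitory receptor best known in T cells, stood at -1.68 and -1.72 and was also the 1 gene of 10 measured T cell markers that fell. The other 9 T cell markers did not pass, with Cd3e at 0.01 and 0.03 and Lck at -0.24 and -0.36. The part of T cell RNA in the loss of Ctla4 was not tested.

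Among cytokines, Tnf fell to -1.43 and -1.36 (limma adjusted p = 0.000315), and Il10 and Ebi3 fell by 0.65 and 0.64. The remaining 8 of 11 cytokines measured did not pass, Lta among them at -0.09, and in the authors' deposited values 1 of 11 fell. The share of all genes tested that fell was 4.32%. Il4i1, a secreted amino acid oxidase induced in activated B cells, had the second largest loss of any named gene. It went from -0.54 and -0.65 at 1 h to -2.69 and -2.50 at 3 h, and was near vehicle again at 24 h, at -0.28 and 0.15. Its 3 h minus 1 h difference was -2.00 ± 0.27 (limma adjusted p = 0.0244).

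**Figure D2:**
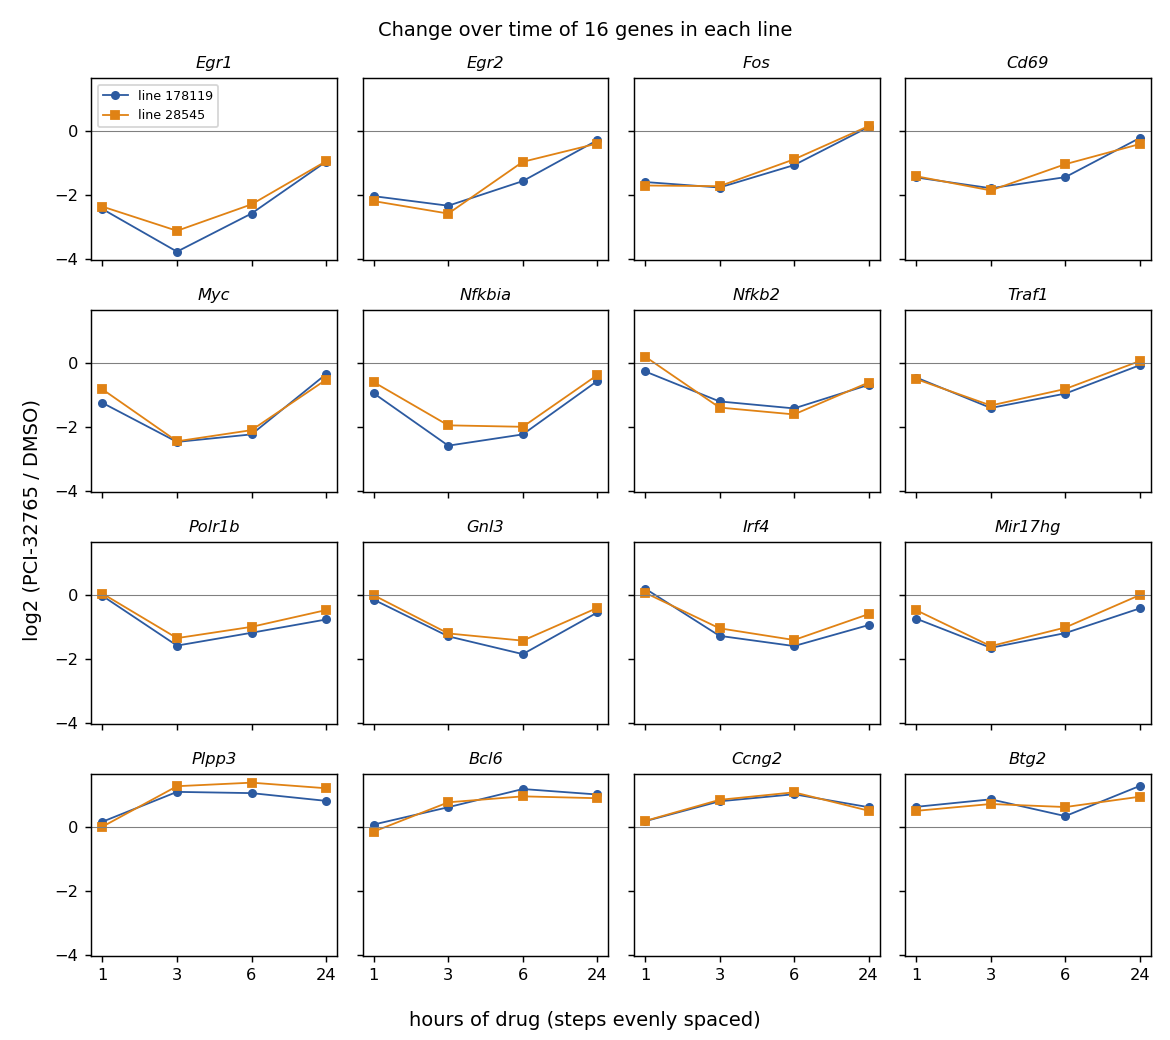
Log2 ratio of PCI-32765 over DMSO (y) after 1, 3, 6 and 24 h (x) for 16 genes in line 178119 (blue circles) and line 28545 (orange squares), 1 array per point. Fos stands at -1.61 and -1.72 at 1 h and at -1.78 and -1.74 at 3 h, Polr1b and Irf4 are near 0 at 1 h and below -1 at 3 h, and Plpp3 is near 0 at 1 h and at 1.08 and 1.26 at 3 h.

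Late genes are here those that passed at 3 h and in 3 h minus 1 h, but not at 1 h. Missing the threshold at 1 h does not mean unmoved. Nfkbia was already at -0.96 and -0.61 then, and Il4i1 at -0.54 and -0.65. There were 58 late genes among those that fell (0.332% of genes tested) and 2 among those that rose (0.0115%, Plpp3 and Lurap1). The 58 had medians of -0.07 at 1 h and -1.14 at 3 h, and 48 of them were within 0.5 of 0 at 1 h in both lines. In all, 65 genes passed in 3 h minus 1 h (0.373%), 63 of them downwards (0.361%), and 1618 had an unadjusted p under 0.05.

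The number of late genes rests on few arrays. The 58 lay below 0 in 3 h minus 1 h under every other setting tabulated for them, with medians from -1.07 to -0.98, and all 58 had an unadjusted p under 0.05 in each, which their choice by this same difference largely fixes. In the authors' deposited values the median was -1.03, yet none of the 58 passed after adjustment (lowest limma adjusted p = 0.183). With the line as a block 44 of them passed. None passed without either 3 h array, 1 without the 1 h array of line 178119 and 14 without that of line 28545.

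Genes of ribosome production were near vehicle at 1 h and low at 3 h. Polr1b, a core subunit of RNA polymerase I, stood at -0.04 and 0.03 at 1 h and at -1.60 and -1.36 at 3 h, 2.79-fold below vehicle. Its difference of -1.47 ± 0.15 had a limma adjusted p of 0.00954. Cd3eap, despite its name a further polymerase I subunit, went from 0.24 and 0.10 to -1.15 and -1.43 with the same adjusted p in limma. Gnl3, encoding nucleostemin, went from -0.16 and -0.02 to -1.31 and -1.22, and Rrs1, a ribosome assembly factor, from -0.32 and -0.04 to -1.19 and -1.22.

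Of 29 ribosome biogenesis and MYC target genes measured, 20 fell at 3 h, none rose, and none passed at 1 h. In the authors' deposited values 7 fell, or 3 once centred, and with median centring 1 fell and 7 rose, while the list's median stayed below that of all genes under each of these scalings. Polr1b, Gnl3 and Rrs1 were the 3 that passed in 3 h minus 1 h. The list's median went from -0.03 at 1 h to -0.56 at 3 h, -0.91 at 6 h and -0.37 at 24 h. Ncl and Fbl, abundant nucleolar proteins, fell by 0.73 and 0.54. Srm, a MYC target in polyamine synthesis, stood at -0.48 and -0.77, and its difference from 1 h missed the threshold (limma adjusted p = 0.0513). Ldha, Cdk4, Odc1 and Npm1, also MYC targets, did not pass at 3 h, with means of -0.17, -0.12, -0.19 and 0.17. Ldha and Cdk4 stood at -0.88 and -0.96 in line 178119 and at -0.79 and -0.66 in line 28545 by 6 h.

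**Figure D3:**
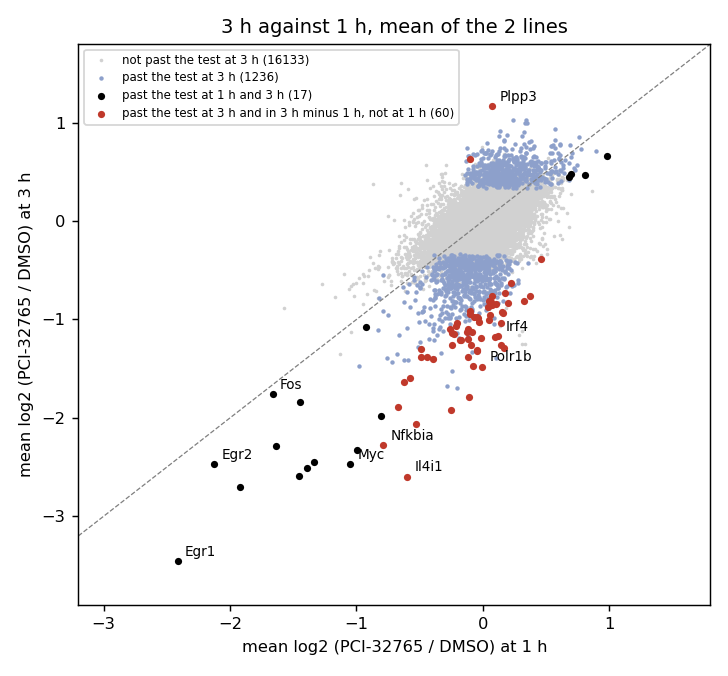
Mean log2 ratio of PCI-32765 over DMSO of the 2 lines at 1 h (x) and 3 h (y), 1 point per gene; the dashed line marks equal change. The 17 genes past the test at 1 h and 3 h (black) spread along and below the line, and the 60 late genes (red, 58 of them lower) lie between -0.79 and 0.46 on x.

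Transcription factors of lymphocytes were among the genes low at 3 h and near vehicle at 1 h. Irf4, the plasma cell and activation factor, stood at 0.19 and 0.06 at 1 h and at -1.29 and -1.05 at 3 h (difference -1.29 ± 0.16, limma adjusted p = 0.021). Nfatc1, the inducible NFAT, went from 0.05 and 0.03 to -0.82 and -0.92 (limma adjusted p = 0.0439). Batf, which pairs with IRF4 on DNA, fell to -1.39 and -0.98 at 3 h, while its difference missed the threshold (limma adjusted p = 0.0566) and passed with the line as a block (limma adjusted p = 0.028).

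Plscr1, an interferon-inducible scramblase, had the smallest adjusted p of all in 3 h minus 1 h (limma, 0.00491), going from -0.28 and -0.23 to -1.90 and -1.95. Slfn2, a quiescence factor of lymphocytes, went from -0.84 and -0.21 to -2.32 and -1.81. Hpdl went from -0.10 and -0.12 to -1.92 and -1.65, Fzd9, a Wnt receptor, from 0.19 and 0.10 to -1.21 and -1.32, and Rasgef1b, a Ras-family exchange factor, from -0.04 and -0.11 to -1.70 and -1.25. In all 5 genes the 3 h values of both lines lay below -1 and below both 1 h values. Their choice as some of the largest falls in 3 h minus 1 h largely fixes this.

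Chosen after the values were seen, 3 transporters among the 58 are given for their size: Slc19a1, the reduced folate carrier, at -1.29 and -1.35, Slc5a6, the multivitamin transporter, at -1.40 and -1.37, and Mfsd2a, a lysophospholipid carrier, at -1.83 and -1.94. At 1 h they stood at -0.10 and 0.00, 0.03 and -0.27, and -0.56 and -0.77. Tfap4, a factor known as a MYC target, crossed from 0.42 and 0.33 at 1 h to -0.66 and -0.87 at 3 h.

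Mir17hg, the host transcript of the miR-17-92 cluster and a known MYC target, was late as well. It stood at -0.75 in line 178119 and -0.49 in line 28545 at 1 h and at -1.66 and -1.61 at 3 h, a difference of -1.02 ± 0.17 (limma adjusted p = 0.0439). At 6 h it was at -1.21 and -1.03, and at 24 h at -0.43 and -0.02. An interval named only by position in the files (mm9, chr14:115443612-115445950, forward strand), whose probe has the same coordinates, gave -1.61 and -1.58 at 3 h and is no separate evidence. The probe reads the host transcript, and mature miRNAs were not measured. The mature sequences of 1 arm of each hairpin are shown to say what the transcript carries, with the seed (bases 2 to 8) in capitals, from RefSeq, GRCm38.p6, within chr14:115043671-115044506 on the + strand.
mmu-miR-17-5p: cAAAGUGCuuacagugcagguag
mmu-miR-20a-5p: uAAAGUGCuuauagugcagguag
mmu-miR-18a-5p: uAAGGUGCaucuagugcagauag
mmu-miR-19a-3p: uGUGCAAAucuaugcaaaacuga
mmu-miR-19b-3p: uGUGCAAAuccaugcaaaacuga
mmu-miR-92a-3p: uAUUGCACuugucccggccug

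These 6 arms carry 4 seeds: miR-17-5p and miR-20a-5p share AAAGUGC, miR-19a-3p and miR-19b-3p share GUGCAAA, and miR-18a-5p and miR-92a-3p have their own. RefSeq's model of Mir17hg in that build (chr14:115044390-115046728) holds 1 of the 6 hairpins, and the first hairpin begins 719 bases before it.

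A group of 4 further probes in intervals that the files name only by position lay on chromosome 16 (mm9) and were down with the drug. The interval chr16:84708695-84708806 (forward) stood at -2.83 and -2.58, chr16:84707202-84707748 (forward) at -2.57 and -2.46, and chr16:84702353-84710928 at -2.51 and -2.67 on the reverse and -2.43 and -2.15 on the forward strand. The first and second of these lie inside the longest interval, so the 4 probes are not independent. All 4 were past the test at 1 h, at -1.31 or lower. No gene name is given for them in the files.

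Some cholesterol synthesis genes fell, by small amounts. Of 20 measured, 7 fell, where 4.32% of all genes tested did, and none rose. Their median was -0.34 at 3 h and 0.02 at 1 h. The count rests on the scaling: 1 fell in the authors' deposited values, 0 once centred, and 10 rose with median centring. Hsd17b7 stood at -0.82 and -0.69, Idi1 at -0.67 and -0.54 and Lss, lanosterol synthase, at -0.71 and -0.50. Hmgcs1, an early enzyme of the pathway, did not pass, at a mean of -0.19. Idi1 and Lss turned to 0.43 and 0.21 under median centring, where they remained below that scaling's median of all genes.

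ERK feedback genes had a median of -0.26. Only Phlda1 (-0.73 and -0.84) and Rasa2 (-0.72 and -0.78) of 15 measured fell, where 4.32% of all genes tested did. Dusp14 of the same list was left out of the fit for a missing value at 24 h in line 28545, and stood at -0.77 and -1.27 at 3 h. Dusp2 and Dusp6, phosphatases that act on MAP kinases, had means of -0.56 ± 0.15 and -0.29 ± 0.09 and did not pass (limma adjusted p = 0.0558 and 0.0979). Dusp6 was lower at 1 h, at -0.59 and -0.54, than at 3 h, at -0.40 and -0.17, although that difference did not pass (limma adjusted p = 0.578). Of 13 calcium and NFAT genes measured, Tnf, Nfatc1 and Orai1, the calcium channel, fell, and Rcan1, a calcineurin target, had a mean of 0.02.

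**Figure D4:**
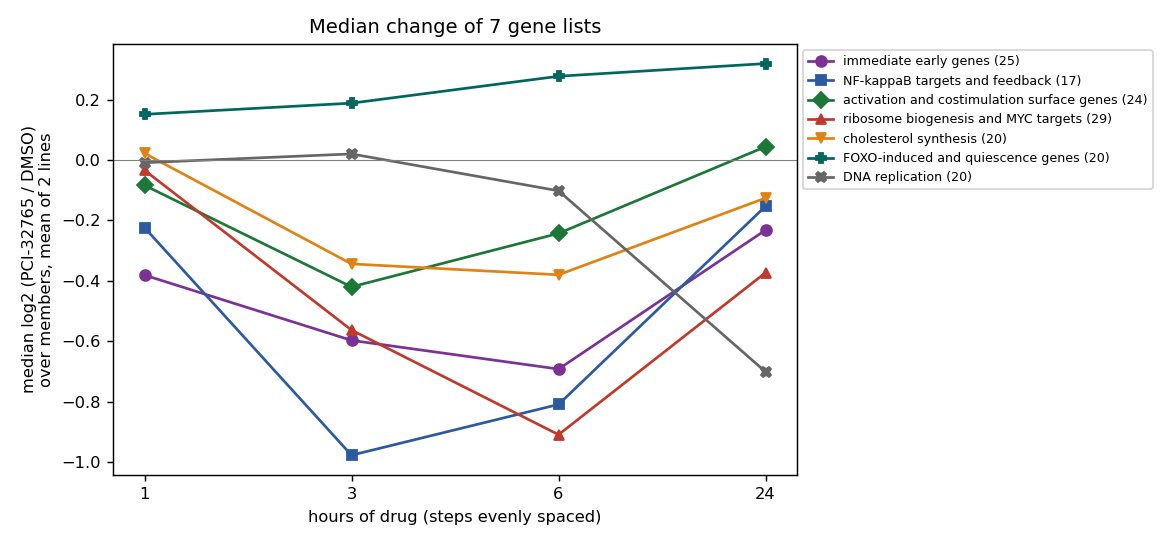
Median over members of the mean log2 ratio of the 2 lines (y) after 1, 3, 6 and 24 h of PCI-32765 (x) for 7 gene lists, with the number measured in brackets. Immediate early genes stand at -0.38 at 1 h, NF-kappaB genes are lowest at 3 h (-0.98), ribosome biogenesis genes at 6 h (-0.91), and DNA replication genes stand at -0.10 at 6 h and -0.70 at 24 h.

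Increases were smaller than decreases. The 560 genes that rose had medians of 0.19 at 1 h, 0.49 at 3 h, 0.51 at 6 h and 0.37 at 24 h. With either 3 h array left out, most of them lost the call, a larger share than among the decreases. Plpp3, Pde4a and Ccng2 kept it either way. Plpp3, a lipid phosphate phosphatase, stood at 0.15 and 0.00 at 1 h and at 1.08 and 1.26 at 3 h (mean 1.17 ± 0.12, limma adjusted p = 0.000685), and remained at 0.80 and 1.20 at 24 h. Pde4a, which breaks down cyclic AMP, stood at 1.00 and 1.06, from 0.30 and 0.39 at 1 h. Lrit1 had a mean of 0.99, but its probe was above background on 1 of the 2 arrays at 3 h.

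Lurap1, the only other gene past the test upwards in 3 h minus 1 h, went from -0.14 and -0.06 to 0.58 and 0.68 (limma adjusted p = 0.0494, and 0.081 with the line as a block). Usp2, a deubiquitinase, stood at 0.85 and 0.98, Nod1, a sensor of bacterial peptidoglycan, at 0.77 and 0.97, and Mex3b at 0.89 and 0.85. None of these 3 passed in 3 h minus 1 h. The brightest 1% of genes, 182 of them, had medians of 0.31 and 0.38 at 3 h, above the medians of all genes of 0.03 and 0.01.

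Some genes of quiescence and of cell cycle braking were among those that rose, each by less than 2-fold. Slfn2, the quiescence factor named above, fell by more, to -2.32 and -1.81. Ccng2, a FOXO-induced cyclin, stood at 0.79 and 0.83 (limma adjusted p = 0.000819). Bcl6, a transcriptional repressor active in germinal centre B cells, went from 0.06 and -0.16 at 1 h to 0.60 and 0.76 at 3 h. At 6 h Bcl6 stood at 1.17 and 0.94. Its 3 h minus 1 h difference missed the threshold (limma adjusted p = 0.0811). The CDK inhibitors Cdkn1b, Cdkn2d and Cdkn2c rose by 0.57, 0.53 and 0.38, the last lost with the line as a block (limma adjusted p = 0.0647), and Cdkn2b fell by 0.59.

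In the FOXO and quiescence list Ccng2 and Bcl6 of 20 rose, with a median of 0.19, where 3.21% of all genes tested rose. Txnip and Pik3ip1, known FOXO targets, had means of 0.28 and 0.38 and did not pass. Of 19 G1 cyclins and CDK inhibitors, 5 rose and 1 fell, the other risers being E2f2 (0.65) and the pocket protein gene Rbl2 (0.70). None of 20 DNA replication genes passed at 3 h, with a median of 0.02 (Tyms, thymidylate synthase, came nearest at 0.47 and 0.37, limma adjusted p = 0.0589), while median centring put 19 of them up, and 1 of 20 mitosis genes rose, Cdc20 at 0.53 and 0.35. In the MYC network Mxd1, Mxd3 and Mxd4, partners of MAX that oppose MYC, rose by 0.37, 0.73 and 0.52, while Mnt, another repressor of the network, fell by 0.46. With the line as a block Mxd1 and Mnt were lost (limma adjusted p = 0.0578 and 0.056). Max had a mean of -0.33 and did not pass (limma adjusted p = 0.0859).

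Of 31 components of the B cell receptor pathway measured, Cd79a and Malt1 rose and none fell, with a median of -0.04. Over all genes tested 3.21% rose and 4.32% fell. In the authors' deposited values none of the 31 passed, 2 rose once centred, and 24 rose with median centring. Cd79a, a signalling chain of the receptor, stood at 1.03 and 0.51, and its probe was saturated on 1 of the 8 arrays. Malt1, the protease of the NF-kappaB branch, rose by 0.42, a call that was lost with the line as a block (limma adjusted p = 0.051). Btk itself, the drug's target, had a mean of -0.33 ± 0.11 and did not pass (limma adjusted p = 0.0936). Atm and Cd3e, deleted in the strain, had means of -0.03 and 0.02. Both probes were above background in the vehicle channel on 8 of 8 arrays, and whether their probes lie in the deleted parts is not given in the sources used here.

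Among inhibitory coreceptors Cd72 fell to -0.91 and -0.85, and Siglecg and Inpp5d, encoding SHIP, rose by 0.39 and 0.41, both lost with the line as a block (limma adjusted p = 0.0632 and 0.0579). Of 16 homing and egress genes, Cxcr5, which guides B cells to follicles, fell by 0.53, and Cxcr3 and Rgs2 rose by 0.59 and 0.54. By comparison, 3.21% of all genes tested rose and 4.32% fell, the shares to set beside every list of this paragraph. Interferon-induced Mx1, Stat2 and Mx2 rose by 0.72, 0.53 and 0.48, and the other 16 of 19 in that list did not pass. Plscr1, interferon-inducible but outside the list, fell to -1.90 and -1.95. Spib, a B cell transcription factor, and Vpreb3 rose by 0.74 and 0.48, and with Cd79a they were the 3 of 10 B cell markers that rose. That list's median was -0.12 and turned above the median of all genes with median centring. The p53 targets Plk3, Aen and Fas fell by 0.87, 0.58 and 0.49 and Btg2 rose, and Cdkn1a, the best known of them, had a mean of 0.25 and did not pass. Glycolysis, ER folding, MHC class II and ATF4 genes had list medians between -0.03 and 0.28, with at most 4 members past the test in each.

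Some genes had no value on 1 or more arrays, most often the 1 h array of line 178119, and were left out of the fit, 1059 in all. In a fit that allowed such gaps, Cd83, an activation antigen, stood at -2.21 and -1.96 at 3 h (mean -2.09, limma adjusted p = 0.000108). Ccnd2, encoding the G1 cyclin D2, stood at -1.11 and -1.06 (limma adjusted p = 0.000519), having been at 0.10 at 1 h in line 28545, the only line with a value there. Bcl2a1d, a survival gene of the NF-kappaB programme, and Nop2, a nucleolar methyltransferase, fell by 1.13 and 0.97 in that fit. Egr3, Spry2, Ccl3 and Ccl4 were among the genes with no value in the fit.

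At 1 h only 17 genes passed (0.0974%), 13 down (0.0745%) and 4 up (0.0229%), and 2750 had an unadjusted p under 0.05. All 17 passed at 3 h in the same direction, which is 1.73% of those down at 3 h and 0.714% of those up. The 4 that rose, Rhox9, Olfr1510 and 2 intervals, were above background in the vehicle channel on at most 1 of 8 arrays. For most of the 3 h response the timing was not resolved: 682 of the 753 genes that fell and 554 of the 560 that rose passed neither at 1 h nor in 3 h minus 1 h. Over all genes that fell and rose, the medians at 1 h were -0.14 and 0.19, against -0.58 and 0.49 at 3 h.

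By 6 h no gene differed from 3 h in limma (0 of 17446, 0%, with 2981 at an unadjusted p under 0.05). Of the genes that fell at 3 h, 605 also passed downwards at 6 h, where 24.9% of all genes passed, 12.3% upwards and 12.6% downwards. This is 80.3% of the 3 h list and 27.6% of the 6 h list. Of those that rose, 411 passed at 6 h, 73.4% of the 3 h list and 19.1% of the 6 h list. All 58 late genes that fell were past the test at 6 h, with a median of -1.19. Without passing that test, Egr2 stood at -1.58 and -0.98 at 6 h after -2.35 and -2.59, whereas Nolc1, a nucleolar protein, stood at -1.85 and -1.55 after -0.72 and -0.91.

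By 24 h many losses were smaller. The 24 h array of line 28545 stood apart from the other drug arrays. Of its spots 85.463% were well above background in red, against at most 52.99% on any other. Before normalization its median log2 ratio was 1.139, against at most 0.4548. This array enters every 24 h value and the spread shared by the fit, and the cause of its brightness was not tested. Between 3 h and 24 h, 1111 genes passed (6.37%), 506 upwards (2.9%) and 605 downwards (3.47%), but 90 and 84 without the 3 h array of line 178119 or 28545, 390 without the 24 h array of line 178119 and 312 in the authors' deposited values. Among the 753 genes that fell at 3 h, 158 passed upwards in 24 h minus 3 h, 3 passed downwards and 326 were still down at 24 h (43.3% of the 3 h list, 15.2% of the 24 h list). At 24 h 23.7% of all genes passed, 11.4% upwards and 12.3% downwards. Fos stood at 0.11 and 0.14 at 24 h, Egr2 at -0.30 and -0.41, and Egr1 at -0.97 and -0.96, each past the test in 24 h minus 3 h (limma adjusted p = 0.000203, 0.000599 and 0.000401). Of the 58 late genes, 43 passed upwards and 26 were still down. Only 4 of the 75 genes at least 2-fold lower in both lines at 3 h were so at 24 h.

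Other losses were still large at 24 h. Irf4 stood at -0.95 and -0.61 at 24 h, and its 24 h minus 3 h difference did not pass (limma adjusted p = 0.2). Plscr1 was at -1.49 and -1.27, higher than at 3 h by the test (limma adjusted p = 0.0458), and Ier3, a stress-response gene, at -0.99 and -1.15. Of the genes that rose, 303 of 560 were past the test upwards at 24 h (54.1% of the 3 h list, 15.2% of the 24 h list), and 40 were past it downwards. Pde4a stood at 0.96 and 1.30 and Bcl6 at 1.00 and 0.88.

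No test of a line difference at 3 h is possible with 1 array a line. Over the 4 times no gene differed between the lines in limma (0 of 17446, 0%, with 624 at an unadjusted p under 0.05). Among genes with a symbol that were at least 2-fold changed in 1 line, the widest gaps at 3 h were in Rps27a, a ribosomal protein gene, at -1.60 in line 178119 and 1.16 in line 28545, and Ms4a1, encoding CD20, at -1.15 and 0.30. Rps27a stood at -1.56 and 0.73 at 1 h but at 1.27 and 1.17 at 6 h, and probes of both genes were saturated on 2 of the 8 arrays. H4c4 and H4c12, histone H4 genes, stood at -1.20 and 0.05 and at -1.32 and -0.07, and Fam13c at -1.26 and -0.05. H4c4 swung within line 178119, from -1.64 at 1 h to 2.44 at 6 h. Fosl1, an AP-1 subunit, was at 0.00 in line 178119 and -1.35 in line 28545, and its mean of -0.67 passed only with the line as a block (limma adjusted p = 0.0322, against 0.189).

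In splenic B cells the genes that fell with the drug at 3 h were higher on average after anti-IgM, which crosslinks the B cell receptor, at 6 h, and lower at 24 h. For the 6 h samples of both genotypes, the titles and the protocol sentence give 6 h while a time field gives 3 h; 6 h is used here. Their median difference from untreated cells was 0.43 in ATMKO and 0.61 in ATMWT cells at 6 h, over 749 genes measured there, against -0.06 and -0.04 for all 17037 drug-tested genes. At 3 h it was 0.12 in ATMKO cells and at 24 h -0.42. The 58 late genes were further up, with medians of 0.89 and 1.06 at 6 h, and 51 and 54 of them lay above 0. The 554 genes that rose with the drug had medians of -0.38 and -0.35 at 6 h. In the fit over all stimulated samples, medians were -0.97 for 25 immediate early genes, -0.02 for 17 NF-kappaB genes and -0.04 for all genes. The 29 ribosome biogenesis and MYC target genes had a median of 0.69 there. Of the 75 genes at least 2-fold lower in both lines at 3 h of drug, 42 lay above 0 in that fit.

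Single genes went with these medians or against them. Polr1b, Hpdl and Fzd9 stood at 1.53, 2.41 and 2.21 in ATMKO cells at 6 h and at 1.05, 2.47 and 2.38 in ATMWT cells. Plpp3, up with the drug, stood at -2.83 and -2.78. Fos and Fosb, down with the drug, stood at -5.41 and -5.71 in ATMKO cells at 6 h after anti-IgM and at -3.47 and -3.54 at 3 h, and Egr1 at 0.68 at 3 h and -0.71 at 6 h. Myc, Tnfaip3, Cd69 and Irf4, also down with the drug, stood at -1.38, -2.49, -3.53 and -1.26 in ATMKO cells at 6 h. In ATMWT cells at 6 h these genes stood at 0.215, -0.35, -1.52 and 0.47. No gene passed between anti-IgM and untreated cells in limma (0 of 20994, 0%, with 1601 at an unadjusted p under 0.05), with 6 samples and 3 residual degrees of freedom. These are therefore values and not calls.

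**Figure D5:**
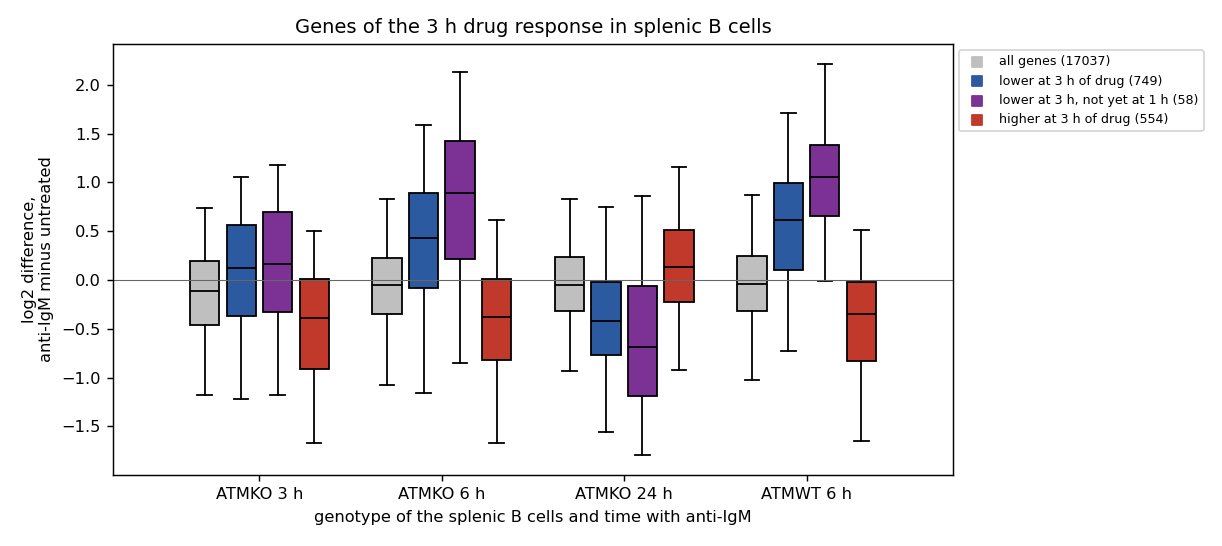
Log2 difference between anti-IgM-treated and untreated splenic B cells (y) in 4 samples by genotype and time (x), for all genes, the genes lower or higher at 3 h of PCI-32765 and the late genes that fell; boxes span the quartiles with the median as a line, whiskers the 5th to 95th percentiles. At 6 h the late genes (medians 0.89 and 1.06) lie above the others, and the genes that rose with the drug lie below 0.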

How the data were processed

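Agilent 2-colour arrays compared PCI-32765 (red) with DMSO (green) in 2 lymphoma lines. The spot intensity values are the authors' deposited scanner output, made with Feature Extraction 10.1.1.1 per the file headers, while the submitters' processing notes name Feature Extraction 9.1 and limma. The deposited log10 ratios were read from the same files for checks, and the authors' deposited series values, on a log2 scale, served as an alternative. Positions are mm9, per the file headers.

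In R 4.3.3, limma 3.58.1 corrected the background (normexp, offset 50) and normalized within arrays (loess). Outlier spots were dropped. Dim probes were left out unless 1 of the channels stood well above background on a share of 0.5 or more of the arrays, and each symbol took its brightest probe with a value on all 8 arrays, a rule set after the files were seen. The fit used 8 arrays, 1 mean per time, eBayes and a Benjamini-Hochberg threshold of 0.05. Scripts were tested on simulated data. The 9 splenic arrays gave 6 samples after averaging repeats, fitted with stimulus and genotype.

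Samples of 1 line pair across times by design. Their deviations correlated at 0.242 between 1 h and 3 h and from -0.345 to 0.137 between other times. Members and lists were chosen with earlier results of these data known. Named genes were the 12 largest changes each way at 3 h, the 10 largest each way in 3 h minus 1 h, up to 3 per list, a fixed set, and the 6 widest gaps between lines. Other names in the text are list members or were chosen after their values were seen. Alternatives covered the deposited values, scaling, offset, dim-probe filter, probe choice, priors, line as a block, fewer arrays and each array left out. The number of arrays limits the precision. Some genes are not reported here.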

Additional observations from a re-analysis of the deposited data

Results flagged for a closer look

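The effect of the drug differed between 3 h and 1 h in 65 genes and between 24 h and 3 h in 1111 genes, by limma's test of the difference with Benjamini-Hochberg adjustment. The first count includes Myc, Polr1b and Irf4 among those lower at 3 h.

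At 3 h the 2 lines lay on opposite sides of 0 in 4 of the 6 named genes with the widest gaps between lines, and these differences were not tested because each line has 1 array. Line 28545 exceeded line 178119 by 2.76 on the log2 scale for Rps27a, by 1.45 for Ms4a1 and by 1.25 for H4c4. For Fosl1 the difference of line 28545 minus line 178119 was -1.35.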

How the results depend on the processing

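Of 1743 recomputed values for 115 named results, 1429 kept direction and side of the threshold, 269 lost the call, 12 gained it and 20 reversed. All 20 reversals came with median centring in place of loess: Phlda1 0.00, Cd72 0.01, Cdkn2b 0.03, Il10 0.17, Ebi3 0.46, Cxcr5 0.52, Bcl2l1 0.59, Aen 0.47, Idi1 0.43, Lss 0.21, Slc7a1 0.08, Slc7a5 0.35, Sel1l 0.34, Tyrobp 0.62, Csf3r 0.70, Tfrc 0.10, Dusp2 0.56, Btk 0.55, Rps27a 0.95 and Ms4a1 0.70. Of these, 15 stayed below that scaling's median of all genes, 0.59.

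Counts moved by over 1.5 times as follows. At 3 h (1313 genes), 589 passed in the deposited series values, 787 with those centred, 10313 with median centring, 3216 with the 3 h arrays alone and 141 to 1616 with 1 array left out. In 3 h minus 1 h (65), 0 passed in the deposited values as they stand or centred, 3 with median centring, 5 with offset 16, 25 with a trended prior, 101 with missing values allowed and 0 to 81 with 1 array left out. For late genes (60) these were 0, 0, 2, 5 and 23, and 0 to 77 with 1 array left out. In 6 h minus 3 h (0), median centring gave 21 and leaving out an array 0 to 2. In 24 h minus 3 h (1111) the deposited values gave 312, or 131 centred, median centring 538, and leaving out an array 84 to 1447. Line differences (0) became 69 with median centring. Genes 2-fold changed in both lines (76) became 316 in the centred deposited values and 464 with median centring, and list members past the test (113) became 60 and 303. The cause of these shifts was not tested.

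With the line as a replicate block 1141 genes passed at 3 h, 447 of the 560 increases and 645 of the 753 decreases among them. Calls that changed with the block beyond those given above were Depdc5 (limma adjusted p = 0.0519) and H2-DMb1 (0.0674) at 3 h. Of 78 named genes past the test at 3 h, 27 passed without either 3 h array in turn.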
